A study of Mus musculus with 9 samples.

Results

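Myelin is the layered membrane that oligodendrocytes wrap around axons in the brain. Its lipid-rich sheets are held together by a small set of abundant proteins, and the genes of these proteins are switched on together when a precursor cell matures, under transcription factors such as SOX10, OLIG2 and MYRF. Glioma tissue taken from a brain can hold such cells beside tumour cells. The 9 genes described here were picked as a list of symbols, with earlier results of these data known, and all 9 were found once among the 18639 entries of each file and passed the filter on low values (1 TPM or more in at least 3 libraries, 13829 genes in all). They encode sheath proteins (Mbp, Mobp, Mal, Cldn11), adhesion proteins of its inner and outer surface (Mag, Mog), enzymes (Cnp, Aspa) and a lineage transcription factor (Sox10).

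The tissue was tumour grown from CT2A, a mouse glioma line, and collected from the brain 5 days after the tumour had been cut out. All 3 groups carried wild-type CT2A tumour and a resection. One was treated with sECM only (the labels do not spell the name out), one with GFP-TC, the control cells, and one with ThTC, which secrete IFNβ and GM-CSF. Each group had 3 libraries, named here by group and number. The labels do not give the mouse strain, the age or whether the cells were 1 clone. Nothing in them ties a library to an animal of its own, and p-values below describe the spread between libraries, which may be technical. Values are TPM, a read abundance corrected for gene length and scaled to the same total in every library. The labels state 4.47 Gb of sequence for each sample; the depth behind a single value is unknown.

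Upstream sequences are shown for 3 members whose levels moved together over the libraries (Mog, Mag, Mobp) and for Aspa, whose level hardly moved. They come from RefSeq (GRCm38.p6), read 5′ to 3′ on the gene's strand, and end 1 base before an annotated start, except that of Mobp, of which bases -250 to -101 are given. The stretches of Mog, Mag and Mobp lie before the gene's outermost RefSeq start, while that of Aspa lies before a start inside the gene's interval. Capitals mark matches on either strand to the SOX letters ACAANG, the MYRF letters CTGGCAC or CTGGTAC, or the E-box CAGCTG.
Mog, chr17:37023399-37023648, minus strand: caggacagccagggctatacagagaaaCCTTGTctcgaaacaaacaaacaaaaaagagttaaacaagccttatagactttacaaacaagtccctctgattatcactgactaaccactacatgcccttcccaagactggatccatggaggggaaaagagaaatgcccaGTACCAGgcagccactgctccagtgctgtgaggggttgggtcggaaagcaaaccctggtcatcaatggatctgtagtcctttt
Mag, chr7:30914923-30915172, minus strand: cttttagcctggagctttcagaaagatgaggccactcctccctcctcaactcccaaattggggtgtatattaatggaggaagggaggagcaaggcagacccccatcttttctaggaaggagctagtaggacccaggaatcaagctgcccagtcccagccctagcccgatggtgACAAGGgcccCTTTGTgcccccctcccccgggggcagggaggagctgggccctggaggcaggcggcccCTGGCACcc
Mobp, chr9:120149492-120149641, plus strand: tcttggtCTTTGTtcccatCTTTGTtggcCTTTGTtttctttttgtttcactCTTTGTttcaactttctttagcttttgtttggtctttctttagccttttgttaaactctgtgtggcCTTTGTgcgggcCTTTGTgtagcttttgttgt
Aspa, chr11:73324638-73324887, minus strand: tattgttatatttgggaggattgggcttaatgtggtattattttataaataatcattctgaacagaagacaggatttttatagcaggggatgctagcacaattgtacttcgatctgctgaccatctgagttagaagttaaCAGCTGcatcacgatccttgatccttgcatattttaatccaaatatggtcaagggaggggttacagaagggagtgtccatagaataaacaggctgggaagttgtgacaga

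In the 250 bases before the start, Mobp held 6 matches to the SOX letters, the first at base -243 and the last at base -120. Mag held 2 at the start shown, at bases -77 and -67, and Mog and Cnp held 1 each. Over the 9 annotated starts of the 7 members with an entry (Mag has 3), 6 starts held the SOX letters, 4 held the MYRF letters and 1, that of Aspa, held the E-box. The windows of 2 Mag starts overlap and hold the same matches. Counted by gene, 4 of 7 members held the SOX letters, 3 the MYRF letters and 1 the E-box. Among all 32817 starts with a window of the same length these letters occurred in 36.3%, 5.92% and 13.0%. Cldn11 and Mal held none of the 3. The upstream sequences of Mbp and Sox10 were not used here. A match describes the letters only.

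The genes lie apart in the genome (GRCm38.p6, RefSeq positions): Mbp on chromosome 18 from 82475091 to 82585637, Mobp on chromosome 9 from 120149742 to 120181488, Mal on chromosome 2 from 127633226 to 127656695, Cldn11 on chromosome 3 from 31149920 to 31164326, Mag on chromosome 7 from 30899175 to 30914922, Mog on chromosome 17 from 37010740 to 37023398, Sox10 on chromosome 15 from 79154913 to 79164490, and Cnp and Aspa on chromosome 11 from 100574909 to 100591875 and from 73304987 to 73326876. Cnp shares 154 of its 3639 exon bases (4.23%) with Dnajc7 on the other strand, and Mobp shares 79 of 6849 with Gm38642 on its own strand (GENCODE M21). The sources used here do not say whether counting used strand, so reads shared by Cnp and Dnajc7 cannot be assigned to 1 gene. Those shared by Mobp and Gm38642 could not be told apart by strand in either case. The other 7 members share no exon base with another annotated gene.

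Mbp had the highest level of the 9 genes and differed widely between libraries. It encodes myelin basic protein, which binds the inner faces of the membrane to each other, and was at 372, 160 and 233 TPM in sECM only 1, 2 and 3, at 88.1, 247 and 1010 TPM in GFP-TC 1, 2 and 3, and at 68.1, 321 and 1232 TPM in ThTC 1, 2 and 3. ThTC 3 and GFP-TC 3 were far above all others, ThTC 1 and GFP-TC 1 were lowest, and the sECM only libraries lay between them. The highest library therefore stood 18.1-fold above the lowest, while both belonged to the ThTC group. Mobp, a small basic protein of the same compartment, was at 63.0, 24.1 and 51.6 TPM with sECM only, 17.2, 37.6 and 196 TPM with GFP-TC, and 12.1, 62.03 and 240 TPM with ThTC, a 19.95-fold range with the same libraries at both ends. Mobp kept close to Mbp within libraries, at 0.151 to 0.221 TPM per TPM of Mbp.

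**Figure D1:**
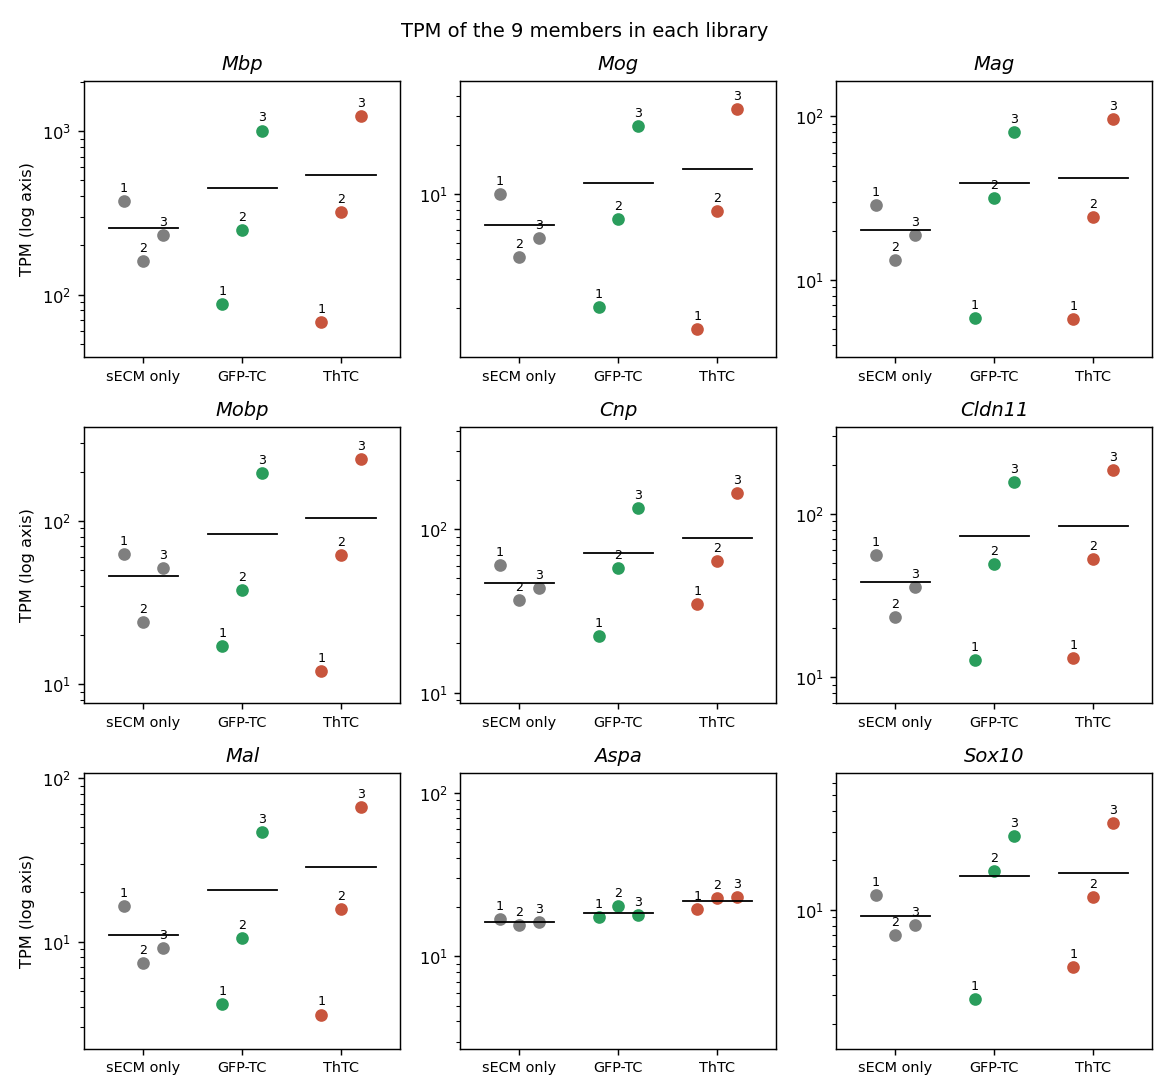
TPM (log axis, each panel spanning the same number of decades) of each member in the 9 libraries, by group; digits are library numbers and bars are group means. In 8 panels the libraries ThTC 3 and GFP-TC 3 lie above all others and the 3 sECM only libraries lie within the span of the other groups, while Aspa stays between 15.6 and 23.1 TPM.

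The other sheath genes were also highest in ThTC 3 and GFP-TC 3. Cldn11, the claudin that forms the tight junctions between myelin layers, was at 55.7, 23.5 and 35.8 TPM with sECM only, 12.7, 49.3 and 157 TPM with GFP-TC, and 13.1, 53.3 and 186 TPM with ThTC. Mal, a proteolipid of compact myelin that is also made by T cells, was at 16.6, 7.37 and 9.10 TPM with sECM only, 4.15, 10.6 and 47.1 TPM with GFP-TC, and 3.58, 15.7 and 66.7 TPM with ThTC. For both, each pair of groups overlapped, and number 3 was the high library of GFP-TC and ThTC but not of sECM only, where number 1 was highest.

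Mag and Mog encode adhesion proteins of the immunoglobulin superfamily, at the inner and the outermost surface of the sheath. Mog had the lowest mean level, at 10.04, 4.09 and 5.36 TPM with sECM only, 2.02, 7.0 and 25.9 TPM with GFP-TC, and 1.49, 7.92 and 33.1 TPM with ThTC, and its 22.2-fold range was the widest of the 9 on the TPM scale. Mag was at 28.6, 13.2 and 18.8 TPM with sECM only, 5.81, 31.6 and 80.5 TPM with GFP-TC, and 5.72, 24.3 and 96.6 TPM with ThTC. The lowest values of Mag, in ThTC 1 and GFP-TC 1, were nearly equal, and GFP-TC 2 lay above ThTC 2, an order seen also for Sox10 but not for the other 7 members.

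Cnp and Sox10 had narrower ranges. Cnp, a phosphodiesterase of the cytoplasmic channels of myelin, was at 60.5, 37.0 and 43.4 TPM with sECM only, 22.1, 57.7 and 135 TPM with GFP-TC, and 35.01, 63.9 and 166 TPM with ThTC, a 7.49-fold range. Sox10, the factor needed for terminal differentiation of oligodendrocytes, was at 12.4, 7.0 and 8.06 TPM with sECM only, 2.85, 17.2 and 28.4 TPM with GFP-TC, and 4.47, 11.98 and 34.1 TPM with ThTC, an 11.95-fold range. Both were lowest in GFP-TC 1 and not in ThTC 1, where Mbp, Mobp, Mog, Mag and Mal had their lowest value.

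Aspa stood apart from the rest. It encodes aspartoacylase, the enzyme that splits N-acetylaspartate in oligodendrocytes, and was at 16.9, 15.6 and 16.2 TPM with sECM only, 17.3, 20.4 and 17.8 TPM with GFP-TC, and 19.4, 22.8 and 23.1 TPM with ThTC. The whole range was 1.48-fold, and GFP-TC 1 and GFP-TC 3, at 88.1 and 1010 TPM of Mbp, had 17.3 and 17.8 TPM of Aspa. The sECM only libraries were the lowest 3 and did not overlap with either other group. For ThTC against sECM only, 5.03% of all tested genes did not overlap in this direction and 12.1% in the other. For GFP-TC against sECM only the shares were 3.15% and 1.08%.

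Measured as the root-mean-square difference of its centred log2(TPM + 1) profile from the median profile of the other 8 members, Mog lay nearest (0.090), followed by Cldn11 (0.12), Mal (0.16), Mbp (0.17), Mag (0.21), Mobp (0.27), Sox10 (0.38) and Cnp (0.44), while Aspa lay at 1.16. ThTC 3 was the highest library for 9 of 9 members, and GFP-TC 3 the second highest for 8 of 9. Summed over the 9 genes, TPM was 292 to 635 with sECM only, 172 to 1697 with GFP-TC and 163 to 2078 with ThTC, which is 0.0163% to 0.208% of a library's total. In bulk tissue, fewer oligodendrocytes and less of these transcripts per cell cannot be told apart.

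**Figure D2:**
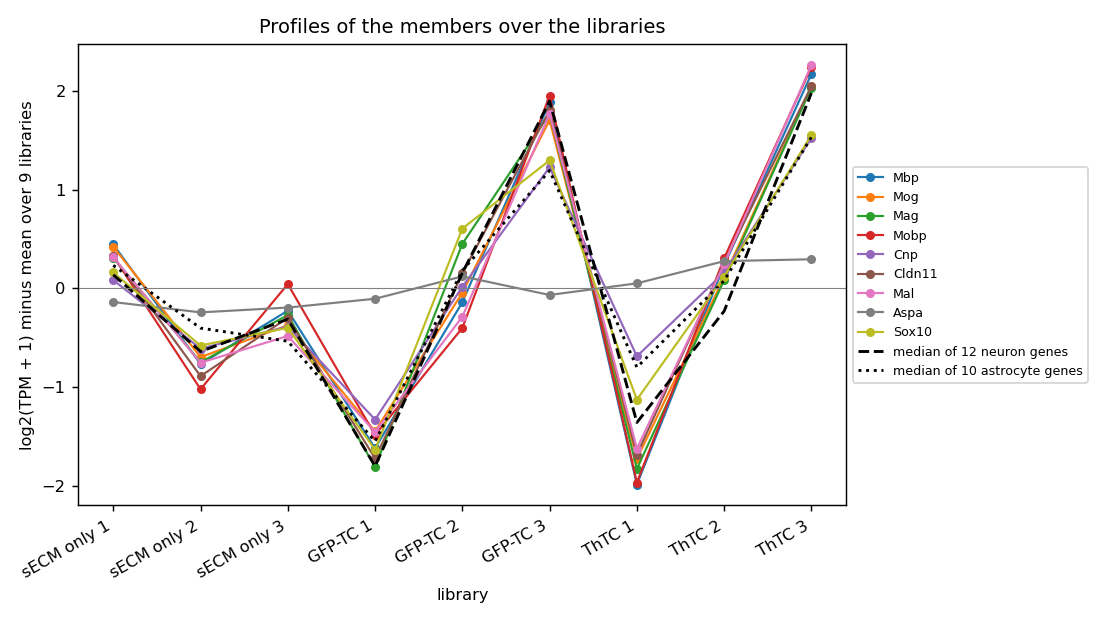
Centred log2(TPM + 1) of each member (lines with points) over the 9 libraries, with the median of 12 neuron genes (dashed) and of 10 astrocyte genes (dotted). The median of the members runs from -1.68 in ThTC 1 to 2.05 in ThTC 3, and Aspa stays within -0.24 and 0.30.

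Levels of brain cell genes moved with the members. All 12 neuron genes ranged over 2 or more on the log2(TPM + 1) scale between the lowest and highest library, as did 9 of 10 astrocyte genes, 8 of the 9 members and 10.3% of all tested genes. None of the neuron or astrocyte genes was at 0 in any library, and limma called 0 of them in each of the 3 comparisons (0 neuron genes and at most 1 astrocyte gene at an unadjusted p under 0.05). The neuron genes summed to 269 to 487 TPM with sECM only, 107 to 1624 TPM with GFP-TC and 191 to 1837 TPM with ThTC, and the astrocyte genes to 465 to 749, 259 to 1367 and 437 to 1598 TPM. Of 10 genes of peripheral myelin 5 were too low to be tested. Pmp2, a fatty acid binding protein gene of that myelin, lay at 0 to 0.80 TPM, Egr2 at 2.68 to 8.55 TPM and Drp2 at 0.80 to 5.96 TPM. Pmp22, which many cell types express, was at 53.3 to 67.8 TPM. What these cell types contribute to the spread of the members was not tested.

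Other genes of the lineage were taken from lists of precursor genes, lineage regulators and mature oligodendrocyte genes. Of 37 tested mature genes, 25 ranged over 2 or more on the log2(TPM + 1) scale and 6 under 1. Trf, the transferrin that oligodendrocytes secrete, was lowest in GFP-TC 1 (63.3 TPM) and highest in ThTC 3 (513 TPM). Apod, a lipid carrier, spanned 168 to 484 TPM between the same libraries. Cmtm5 (1.78 to 45.8 TPM) and Tppp, a tubulin-binding protein gene (3.0 to 59.9 TPM), ranged again between these 2 libraries. Their ranges were the widest of the tested genes of this list on the log2(TPM + 1) scale, though not as a fold of TPM.

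The regulators fell into separate kinds. Of 11 tested, 6 ranged over 2 or more and 5 under 1. Olig1, a basic helix-loop-helix factor of the lineage, was at 55.0, 33.7 and 28.6 TPM with sECM only, 11.4, 51.7 and 104 TPM with GFP-TC, and 22.3, 54.1 and 129 TPM with ThTC. Nkx6-2, a homeobox gene of maturing oligodendrocytes, had the widest range, with 0.33 TPM in ThTC 1 and 22.1 TPM in ThTC 3. Zeb2, a factor also made by many other cell types, stayed between 32.6 and 52.8 TPM. With Zeb2, the genes under 1 were Nkx2-2, Tcf7l2, Zfp488 and St18, the latter 4 listed after their values were seen.

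Precursor genes also differed among themselves. Pdgfra, the growth factor receptor of precursor cells, stayed between 44.4 and 68.7 TPM, and Cspg4, the NG2 proteoglycan gene, between 18.5 and 52.0 TPM. Both are also made by pericytes, fibroblasts or glioma cells. Bcas1, a gene of newly forming oligodendrocytes, spanned 5.42 to 67.3 TPM, and Cspg5, a neural proteoglycan gene, 4.71 to 62.9 TPM, each lowest in GFP-TC 1 and highest in ThTC 3. Of the 11 tested precursor genes, 8 ranged over 2 or more and 1, Pdgfra, under 1.

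**Figure D3:**
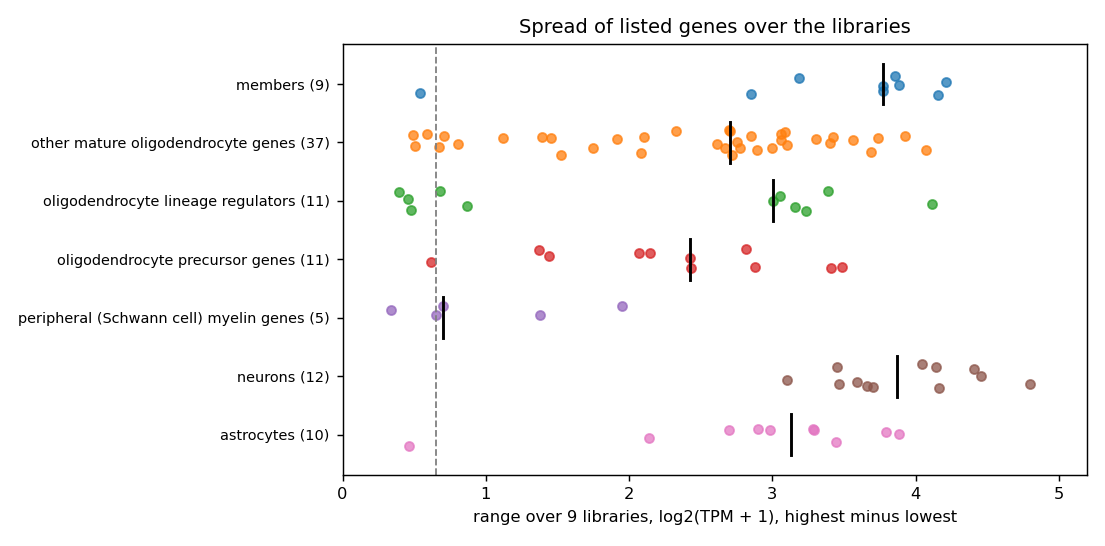
Range of log2(TPM + 1) over the 9 libraries for each tested gene of 7 lists (points, with vertical jitter; number tested in parentheses), with list medians (black bars) and the median of all 13829 tested genes (dashed line, 0.65). The members' median is 3.77 and that of the neuron genes 3.87, and Aspa is the one member below 1.

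Within a library, the ratio of 2 TPM values does not depend on the library total. Mbp per TPM of Snap25, a synaptic gene of neurons, was 4.12, 3.28 and 3.79 in sECM only 1, 2 and 3. It was 4.75, 3.22 and 3.22 in GFP-TC 1, 2 and 3 and 2.02, 4.64 and 2.97 in ThTC 1, 2 and 3. All 9 libraries thus lay within a span from 2.02 to 4.75, although Mbp itself spanned 18.1-fold, and the ThTC group held the lowest value and the second highest. The mean log2 ratio was 1.601 with ThTC, 1.87 with GFP-TC and 1.89 with sECM only. In exact two-sided permutation tests p was 0.4 for the difference between ThTC and GFP-TC, 0.6 between ThTC and sECM only, and 0.8 between the control groups. Adjusted over the 3 by the Benjamini-Hochberg method each exact p was 0.8, and 3 libraries against 3 cannot give less than 0.1. Of the ratios described here only Mbp over Snap25 was tested, and the plan of the analysis had listed no test of ratios.

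ThTC 1 had the lowest Mbp relative to Snap25, Gfap, Cnp and Olig1, but not relative to Sox10, where GFP-TC 2 (14.4) lay below ThTC 1 (15.2). Its Mbp per TPM of Gfap, an astrocyte filament gene, was 0.315, where the other 8 libraries lay between 0.730 and 1.44. Its Mbp per TPM of Cnp was 1.95 against 3.99 to 7.49 in the others, and per TPM of Olig1 it was 3.05 against 4.75 to 9.73. Mbp made up 41.8% of the summed TPM of the 9 members in ThTC 1 and 51.1% to 59.5% elsewhere. For Cnp, Olig1 and Gfap this is 1 library. The Cnp and Olig1 ratios of ThTC 2 and ThTC 3 lay within the range of the other groups. For Gfap ThTC 3 was the highest of all. For Snap25, however, ThTC 3 (2.97) also lay below every library of the other groups, of which GFP-TC 3 was lowest (3.22).

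**Figure D4:**
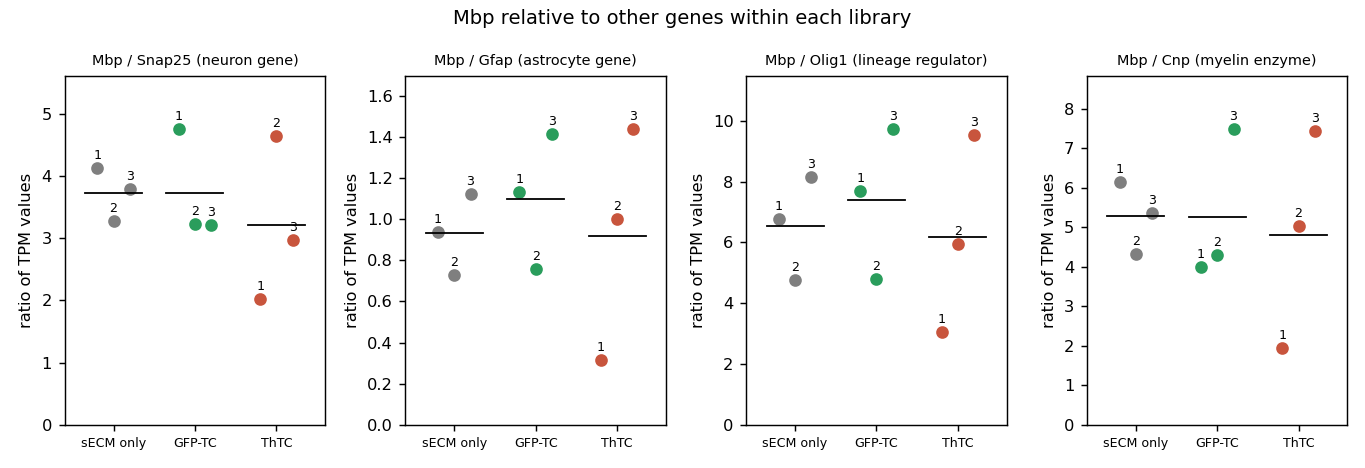
Ratio of Mbp to Snap25, Gfap, Olig1 and Cnp in each library (TPM over TPM, axes from 0); digits are library numbers and bars are group means. ThTC 1 is the lowest point in all 4 panels, at 2.02, 0.315, 3.05 and 1.95.

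By their description, ThTC secrete IFNβ and GM-CSF and GFP-TC are their control. Means of 8 of the 9 members were higher with ThTC on the log2 scale, where 33.8% of all tested genes were, and the median log2 fold change of the members was 0.13 against -0.10 over all tested genes. Mbp averaged 541 ± 612 TPM in ThTC libraries against 448 ± 493 TPM in GFP-TC libraries (SD, n = 3), and Mal, at 28.7 ± 33.5 against 20.6 ± 23.2 TPM, had the largest ratio of means, 1.39. Within both groups the SD equalled or exceeded the mean for Mbp, Mobp, Mog, Cldn11 and Mal. limma, a moderated linear model over all tested genes, called 0 of the 9 members and 0% of all genes after Benjamini-Hochberg adjustment at 0.05. Before adjustment 0 members and 14.9% of all genes (2065) were under 0.05. The adjusted p was 0.37 for Aspa and 0.86 to 0.996 for the others. No member separated the groups without overlap, which 2.2% of tested genes did with ThTC higher and 16.9% with ThTC lower.

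The interval of each difference was wide. For Mbp the log2 fold change was 0.10 with a 95% interval from -2.43 to 2.63, which allows ThTC to be anything from 0.185-fold to 6.19-fold of GFP-TC. For Aspa it was 0.22 with an interval from -0.04 to 0.48. Without GFP-TC 1 the median of the members was -0.69, without ThTC 3 it was -0.79, without ThTC 1 it was 1.01 and without GFP-TC 3 it was 0.99, so single libraries set its direction. The sign for Mag (-0.04) also turned with median-of-ratios scaling (0.09) and quantile normalization (0.04). With sample quality weights 4 of 9 members were higher and 5 lower with ThTC (median -0.0054), and limma called 0 members and 42.4% of all genes, instead of 0%.

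Libraries of these groups were also compared number by number. They were paired from correlations over genes in these same values, and no label says what a number stands for. The fit with the number as a block thus rests on a grouping taken from these data, which limits its p-values. For number 3, 9 of 9 members were higher in ThTC, with log2 differences from 0.25 (Cldn11) to 0.49 (Mal), as were 11 of 12 neuron genes, 9 of 10 astrocyte genes and 42.5% of all tested genes. For number 2, 7 of 9 members were higher in ThTC, with Mobp at 62.03 against 37.6 TPM and with Mag and Sox10 lower, beside 0 of 12 neuron genes, 3 of 10 astrocyte genes, 2 of 11 precursor genes and 26.8% of all tested genes. For number 1, 4 of 9 members were higher in ThTC, beside 9 of 12 neuron genes, 9 of 10 astrocyte genes, 8 of 11 precursor genes and 45.2% of all tested genes. In that pair Cnp was 1.58-fold and Sox10 1.57-fold of GFP-TC 1, while Mobp was 0.700-fold and Mbp 0.773-fold. Among the lineage factors of the same pair Olig1 and Olig2 were at 1.95-fold and 2.02-fold and Nkx6-2 at 0.303-fold. With the number as a block in these 6 libraries limma called 8 genes (0.0578% of those tested) instead of 0, and 0 of the 9 members. The only member under an unadjusted p of 0.05 there, where 17.3% of all genes were, was Cnp at 0.020 in limma. Its log2 fold change was 0.36 (adjusted p = 0.24 in limma). Cnp was higher in ThTC in 3 of 3 pairs, as were Cldn11 and Aspa. The share of all tested genes higher in 3 of 3 pairs was not counted.

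**Figure D5:**
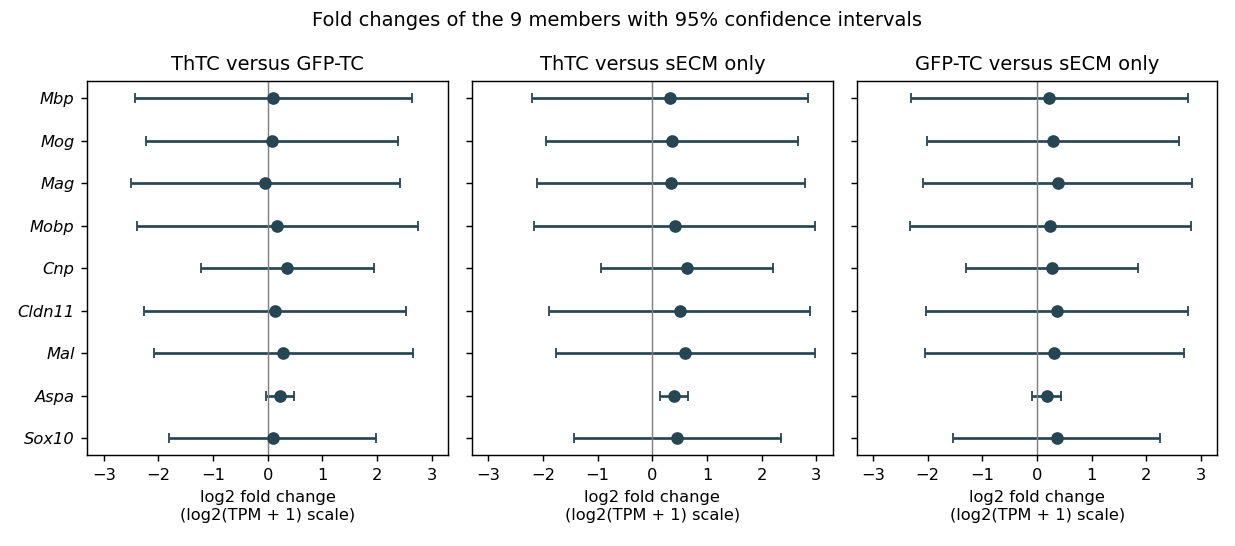
Log2 fold change on the log2(TPM + 1) scale of each member in the 3 comparisons (first group minus second), with 95% confidence intervals from limma. All intervals but that of Aspa for ThTC against sECM only include 0, and that of Mbp runs from -2.43 to 2.63 for ThTC against GFP-TC.

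ThTC was also compared with the group given sECM alone. All 9 members had higher means with ThTC, against 44.4% of tested genes, with a median log2 fold change of 0.41 against -0.03 over all genes. Mbp was at 541 ± 612 against 255 ± 108 TPM (SD, n = 3; adjusted p = 0.93 in limma) and Mog at 14.2 ± 16.7 against 6.50 ± 3.13 TPM (adjusted p = 0.92). The 8 members other than Aspa overlapped between the groups, since ThTC 1 lay below every sECM only library for each of them. limma called 0 of 9 members and 0% of all genes, with 1 member and 954 genes at an unadjusted p under 0.05. Without ThTC 3 the median of the members was -0.42, with 7 of 9 lower, and without ThTC 1 it was 1.30.

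Aspa was the member with the smallest p. Its mean was 21.8 ± 2.08 TPM in ThTC libraries against 16.2 ± 0.626 TPM in sECM only libraries (SD, n = 3), a ratio of 1.34 (log2 fold change 0.40, SE 0.11, 95% interval 0.14 to 0.66). The groups did not overlap, as was the case in this direction for 5.03% of tested genes and in the other direction for 12.1%. The unadjusted p was 0.0073, where 6.9% of all tested genes were under 0.05, and the adjusted p was 0.69, so it was not called. With sample quality weights the adjusted p was 0.016 (log2 fold change 0.46), the only setting run in which a member was called; 18.7% of all tested genes were called under it. With each library left out in turn its log2 fold change stayed between 0.36 and 0.48. Means of genes of some other cell types were also higher with ThTC, against 44.4% of all tested genes. They were higher for 12 of 12 neuron genes (median log2 fold change 0.43) and 9 of 10 astrocyte genes (0.50). The same held for 7 of 8 microglia genes (0.50) and 6 of 8 monocyte and macrophage genes (0.43). In other lists it was 4 of 7 endothelial genes (0.14), 4 of 7 meningeal and fibroblast genes (0.06) and 2 of 5 peripheral myelin genes (-0.12). Summed TPM of the microglia list was 479 to 932 with ThTC against 415 to 528 with sECM only. That of the monocyte and macrophage list was 1188 to 2270 against 954 to 1037. No gene of the microglia list or the monocyte and macrophage list was at 0 in any library. The part of these cell types in the level of Aspa was not tested.

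The third comparison set the control cells against sECM alone. All 9 members had higher means with GFP-TC, against 71.8% of tested genes, and the median log2 fold change was 0.29 against 0.08 over all genes. Mbp was at 448 ± 493 against 255 ± 108 TPM (SD, n = 3) and Cnp at 71.5 ± 57.6 against 47.0 ± 12.1 TPM. limma called 0 of 9 members and 0% of all genes, with an adjusted p of 0.997 for each member. Before adjustment 0 members and 0.933% of all genes (129) were under 0.05. Aspa, at 18.5 ± 1.67 against 16.2 ± 0.626 TPM, was the member without overlap, as were 3.15% of tested genes in this direction and 1.08% in the other. Without GFP-TC 3 the median of the members was -0.50, and 8 of 9 had lower means.

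The comparisons share control libraries and are not independent. The spread of the members differed by group: the SD of Mbp was 42.2% of its mean with sECM only, 110% with GFP-TC and 113% with ThTC, and that of Aspa 3.85%, 9.04% and 9.55%. Without both GFP-TC 3 and ThTC 3, the median log2 fold changes of the members were 0.07 between ThTC and GFP-TC, -0.42 between ThTC and sECM only, and -0.50 between GFP-TC and sECM only. limma called 0 genes in each, with 1499, 599 and 210 at an unadjusted p under 0.05.

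With the mean level of the 12 neuron genes as a term in the model, the standard errors of the members other than Aspa were smaller, and 26 of the 27 differences were closer to 0, the exception being Mag between ThTC and GFP-TC (-0.12). For Mbp the SE for ThTC against GFP-TC was 0.26 instead of 1.11, and the log2 fold change was 0.02 (95% interval -0.55 to 0.59). For ThTC against sECM only it was -0.14 (-0.71 to 0.44). Cnp kept a positive difference, 0.31 (0.11 to 0.51) for ThTC against GFP-TC and 0.34 (0.14 to 0.55) against sECM only. Its adjusted p was 0.13 and 0.31 in limma. In these comparisons 3498 and 1693 of the 13829 tested genes were at an unadjusted p under 0.05 in the same fit. For GFP-TC against sECM only Cnp was at 0.03 (-0.17 to 0.24). No member was called in this fit. The neuron term comes from these same libraries, collected after treatment, and its genes moved with the members. The narrower intervals are thus not those of a treatment effect corrected for tissue content. What the neuron genes contribute to these differences was not tested.

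In the lists of other lineage genes limma called 0 genes in each comparison. Between ThTC and GFP-TC, 8 of 11 precursor genes, 4 of 11 regulators and 20 of 37 mature genes had higher means (median log2 fold changes 0.24, -0.01 and 0.01). Between ThTC and sECM only it was 9, 7 and 34 (medians 0.58, 0.23 and 0.38), and between the control groups, GFP-TC being the higher, 10, 9 and 32 (medians 0.27, 0.25 and 0.31). Over all tested genes the means of 33.8%, 44.4% and 71.8% were higher in these comparisons, in the same order. At an unadjusted p under 0.05 there were 0, 1 and 2 listed genes in the first comparison. In the second there were 1, 0 and 1, and in the third 0, 0 and 1. Of all tested genes 14.9%, 6.9% and 0.933% were under 0.05 in the same comparisons. Mean TPM of Trf was 261 ± 225 in ThTC, 234 ± 174 in GFP-TC and 168 ± 34.1 in sECM only libraries (SD, n = 3). Olig1 was at 68.6 ± 54.9, 55.6 ± 46.3 and 39.1 ± 14.0 TPM in the same groups. The next genes were singled out after their values were seen. Evi2a (48.4 ± 10.6 against 31.3 ± 8.73 TPM) was higher in every ThTC library than in any GFP-TC library. Zfp488 (21.8 ± 3.12 against 32.4 ± 4.15 TPM), Mcam and Adamts4 were lower without overlap. Their adjusted p, with that of Evi2a, was 0.32 to 0.36 in limma. Of all tested genes, 2.2% did not overlap with ThTC higher and 16.9% with ThTC lower.

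Genes with a profile like that of the members were ranked among 11193 genes with a mean of 5 TPM or more, by the root-mean-square difference from the members' median profile over the 9 libraries. The nearest was Adgrb1, an adhesion receptor gene of the brain (0.12), which had 2.51 TPM in ThTC 1 and 37.9 TPM in ThTC 3. Also among the nearest was Fa2h, which hydroxylates fatty acids of myelin lipids (0.16). Others near it were Ppp2r2c, Stmn4, Nkx6-2, Slc6a17, Sult4a1 and Lgi3, all within 0.19. Snap25 ranked 169, Olig1 300 and Gfap 439 in the same order. The list of nearest genes thus mixes myelin genes with genes of other brain cells, and likeness here rests on 9 libraries.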

How the data were processed

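TPM values, 1 file per library and rounded to 2 decimals, were deposited by the authors, per the file headers and values. HISAT and the builds GRCm38.p6 and mm10 are named in the submitters' processing notes. The quantification tool, annotation and filters are not given in the sources used here. Total RNA was sequenced on the DNBseq platform, per the labels' protocols. TPM is scaled to a fixed total (equal between libraries to within 0.74 TPM of its nominal value), so a rise of some genes lowers others, and it keeps no depth, so no count model or counting interval was used. No 2 libraries of a group shared more than 0.42% of their TPM values over tested genes.

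Values were analysed as log2(TPM + 1), a scale that understates changes of low genes. Genes at 1 TPM or more in at least 3 libraries were fitted with limma 3.58.1 in R 4.3.3, all 9 libraries in one model with an intensity trend, with Benjamini-Hochberg adjustment over the 13829 genes within each comparison and a threshold of 0.05. Exact permutation tests used scipy 1.17.1 in Python 3.11.15, and figures matplotlib 3.10.9. The fit was tested on simulated data in which each gene varied independently. In the real libraries many genes moved together, so the simulation does not give error rates for these data. Alternatives were other pseudocounts, filters and scalings, sample weights, a replicate block, a neuron score covariate and leaving out libraries; leaving out both number 3 libraries was added after seeing the data.

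The members and lists were chosen with earlier results of these data known. Named genes were the members and, from each lineage list, the 2 tested genes with the highest mean and the 2 with the largest range of log2(TPM + 1). Genes among the 10 nearest profiles and fixed context genes were also named; some are not reported here. Deviations of same-numbered libraries from their group means, over genes, correlated at 0.74, 0.12 and 0.87 for GFP-TC and ThTC, so these were treated as pairs, although no label says what a number stands for and ThTC 2 correlated more with GFP-TC 1 (0.38) than with GFP-TC 2. They correlated at -0.53, -0.14 and -0.19 for sECM only and GFP-TC and at -0.55, 0.28 and -0.21 for sECM only and ThTC, which were not treated as pairs.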

Additional observations from a re-analysis of the deposited data

How the results depend on the processing

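Values are log2 fold changes unless said otherwise, and the cause of each shift was not tested. Other pseudocounts, filters and a fit of only the 6 libraries compared kept the direction and call of every member and comparison. Between ThTC and GFP-TC, Mag turned to 0.088 with median-of-ratios scaling, which moved the median of all genes from -0.10 to 0.02, and to 0.037 with quantile normalization. With the replicate number as a block, which changed no call of a member, 8 genes were called between ThTC and GFP-TC (6 libraries) and 1 between GFP-TC and sECM only (9 libraries). With sample quality weights, 5866 genes were called between ThTC and GFP-TC, and Mog (-0.14), Cnp (-0.0054), Cldn11 (-0.14) and Sox10 (-0.48) turned; 2582 genes and 1 member, Aspa, were called between ThTC and sECM only.

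With the neuron score as a covariate, Mog turned to -0.000247 between ThTC and GFP-TC. Between ThTC and sECM only, 2 genes were called, and Mbp (-0.14), Mog (-0.058), Mag (-0.12) and Mobp (-0.046) turned. Between GFP-TC and sECM only, 1 gene was called, and Mbp (-0.15), Mog (-0.058), Mobp (-0.14) and Mal (-0.037) turned. Without both number 3 libraries, chosen after seeing the data, Mog was -0.061 between ThTC and GFP-TC. Between ThTC and sECM only, Mbp was -0.69, Mog -0.59, Mag -0.64, Mobp -0.61, Cldn11 -0.42, Mal -0.38 and Sox10 -0.23. Between GFP-TC and sECM only, Mbp was -0.70, Mog -0.53, Mag -0.44, Mobp -0.73, Cnp -0.35, Cldn11 -0.50, Mal -0.56 and Sox10 -0.24.

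With 1 library left out at a time, no member was called, and 0 to 1 genes were called against sECM only (1 without sECM only 1 for ThTC, and 1 without sECM only 1 or 2 for GFP-TC). Between ThTC and GFP-TC the ranges were -0.92 to 1.16 for Mbp, -0.88 to 1.01 for Mog, -1.02 to 0.92 for Mag, -0.85 to 1.25 for Mobp, -0.29 to 0.99 for Cnp, -0.79 to 1.08 for Cldn11, -0.70 to 1.25 for Mal and -0.77 to 0.75 for Sox10. Between ThTC and sECM only they were -0.69 to 1.39 for Mbp, -0.59 to 1.30 for Mog, -0.64 to 1.29 for Mag, -0.61 to 1.49 for Mobp, -0.42 to 1.44 for Cldn11, -0.38 to 1.56 for Mal and -0.23 to 1.11 for Sox10. Between GFP-TC and sECM only they were -0.70 to 1.05 for Mbp, -0.53 to 1.05 for Mog, -0.44 to 1.35 for Mag, -0.73 to 0.99 for Mobp, -0.35 to 0.93 for Cnp, -0.50 to 1.26 for Cldn11, -0.56 to 1.05 for Mal and -0.24 to 1.22 for Sox10. The extremes came from leaving out library 1 or 3 of GFP-TC or ThTC. TPM keeps no depth, so how far counting error limits the low members, such as Mog at 1.49 TPM in ThTC 1, is unknown.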

Other observations

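By list medians, genes of immune, vascular and meningeal cells spread less over the libraries than the members and the neuron and astrocyte genes did. Single genes departed from this. On the log2(TPM + 1) scale Arg1 of the monocyte and macrophage list ranged over 3.87 and Col1a2 of the meningeal and fibroblast list over 3.36. The member Aspa ranged over 0.54. The median range on the log2(TPM + 1) scale was 1.88 for 8 microglia genes, 1.22 for 7 endothelial genes, 1.87 for 8 monocyte and macrophage genes and 1.87 for 7 meningeal and fibroblast genes, against 3.77 for the 9 members. P2ry12, a microglial receptor gene, was at 3.40 TPM in GFP-TC 1 and 28.0 TPM in ThTC 3, the libraries where Cnp was also lowest and highest. Aqp4, the water channel gene of astrocytes, spanned 7.53 to 62.6 TPM between the same libraries. Cldn5, the claudin of the blood-brain barrier, stayed between 32.7 and 78.3 TPM.

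Lyz2, the lysozyme gene of myeloid cells, did not follow the members: it was highest in ThTC 2 at 1499.6 TPM, with 694 and 914 TPM in ThTC 1 and 3, and all 3 ThTC libraries lay above the 362 to 570 TPM of the other 6. Of all tested genes, 2.2% were higher without overlap in ThTC against GFP-TC, and 5.03% against sECM only. Of the 8 monocyte and macrophage genes, 8 had higher means in ThTC than in GFP-TC (median log2 fold change 0.65). Among these 8, 0 were called by limma and 3 were at an unadjusted p under 0.05. Over all tested genes 33.8% had higher means in ThTC than in GFP-TC, and 14.9% were under 0.05 in either direction. Ptgds, made by meningeal cells and by oligodendrocytes, was at 41.8 TPM in GFP-TC 1 and at 215 and 234 TPM in GFP-TC 3 and ThTC 3. Of the tested genes in the microglia, endothelial and meningeal lists, 7 of 8, 4 of 7 and 4 of 7 had higher means in ThTC than in GFP-TC, and limma called 0, with 0, 0 and 1 at an unadjusted p under 0.05.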
